A study of Mus musculus with 19 samples.

Results

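The comparison described here set label-retaining against double negative cells, the 2 slow-cycling populations sorted from mouse skin squamous cell carcinoma. Its members are the 1609 gene rows of the authors' deposited table of log2 ratios, all rows being taken, read in the columns for label-retaining over double negative cells of the tumours SCC1 and SCC2. A defined ratio in both tumours was held by 1574 of the 1609 genes, and counts and medians below are over these unless stated. The other 35 genes were listed at 12 in size, which stands for an undefined ratio, or at exactly 0 in at least 1 tumour.

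The label-retaining cells were CD71lo H2BGFPhi and are called quiescent in the labels, and the double negative cells were CD71lo H2BGFPlo. Proliferative cells, CD71hi H2BGFPlo, were the third sorted RNA population and serve below as the point of reference within each tumour. Each tumour has its own proliferative library, so a gap between tumours in such ratios can also come from the reference, which was not tested. The 2 independent tumours were skin tumours of strain C57BL/6 that formed from 10000 cells injected into the dermis, and RNA came from 100000 sorted cells. All groups were sorted by the H2BGFP label, no treatment is named for them, and the promoter driving the label, the age of the hosts and the number of hosts per tumour were not stated in the labels. Each population of each tumour was 1 library, so 4 of the 19 samples of the series stand behind these ratios and the tumours are the only replicates. No spread within a tumour is known, so a difference between the tumours has no replicate check, and counts below rest on the size of a ratio alone. The one test that the 2 within-tumour ratios allow, of a shared difference, was added after the data were seen and is given with the shared genes.

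CD71 is the transferrin receptor, which brings iron into the cell and is abundant on dividing cells. A histone H2B fused to GFP is passed on to daughter cells and diluted at each division, so a cell that keeps the label has divided little since labelling. Double negative cells share low CD71 with the label-retaining cells but hold little of the label. TGF-β, a secreted growth factor that slows division of keratinocytes, is a known signal in squamous tumours, where fibroblasts, vessels and myeloid cells surround the cancer cells.

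The 3 log2 ratios of a tumour per the authors' deposited table add up, the ratio over proliferative cells of one population less that of the other being within 0.05 of the direct ratio for 99.8% of 1588 genes in SCC1 and 99.6% of 1570 in SCC2. A ratio of at least 1 in size in a tumour was present for 81.4% of the 1609 genes for quiescent over proliferative cells, for 69.9% for double negative over proliferative cells and for 34.9% for the direct comparison. The sorting gene Tfrc, which encodes CD71, had log2 ratios of -0.12 in SCC1 and 0.45 in SCC2 between the slow populations per the authors' deposited table. It was lower in each of them than in proliferative cells there, by log2 ratios of -1.72 and -1.55 in label-retaining and -1.63 and -2.02 in double negative cells. The H2BGFP part of the sort was not checked here. Of 34 listed basal keratinocyte and epithelial genes 3 had a defined ratio, and since the table gives no levels, the labelled tissue could not be checked against its markers. In bulk samples such as these, fewer cells of a type and less RNA per cell cannot be told apart.

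Most genes of the table differed little between label-retaining and double negative cells. A gene was called where its log2 ratio was at least 1 in size, a 2-fold difference, and 1047 genes (66.5%) were under that size in both tumours. In SCC1 24 genes (1.52%) were higher and 297 (18.9%) lower in label-retaining cells. In SCC2 the weight was the other way, with 281 genes (17.9%) higher and 103 (6.54%) lower. Of the called genes 7.48% were thus higher in SCC1 and 73.2% in SCC2. Over all genes the authors' deposited table had a median log2 ratio of -0.23 in SCC1 against 0.14 in SCC2, and with each column centred on that median the shares became 18.9% and 63.1%.

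The tumours shared few calls. Both had 13 genes higher (0.826%) and 29 lower (1.84%) in label-retaining cells, while 136 genes (8.64%) were lower in SCC1 and higher in SCC2. In the reverse direction, higher in SCC1 and lower in SCC2, there were 0 genes (0%). Another 349 genes were called in 1 tumour alone. A moderated one-sample test of the 2 within-tumour ratios (limma), with 1 residual degree of freedom per gene, passed 0 of the 1574 genes in either direction at an adjusted p under 0.05 (Benjamini-Hochberg, lowest value 0.998). At an unadjusted p under 0.05 it had 15 genes higher (0.953%) and 33 lower (2.10%). The shared calls are thus described by their size and did not pass this test. The sign of the ratio was the same in both tumours for 720 genes, 45.7%. Across genes, which share libraries and are no replicates of each other, Pearson's r between the tumours was -0.10 and Spearman's rho -0.17, and r was -0.17 without the 2 genes beyond 11 in size. At the edge of the call per the authors' deposited table lay Gbp1 at 1.04 and Msx1as at 0.99 on the higher side and Ogn at -1.01 and Chst3 at -0.99 on the lower side, each in its less extreme tumour.

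**Figure D1:**
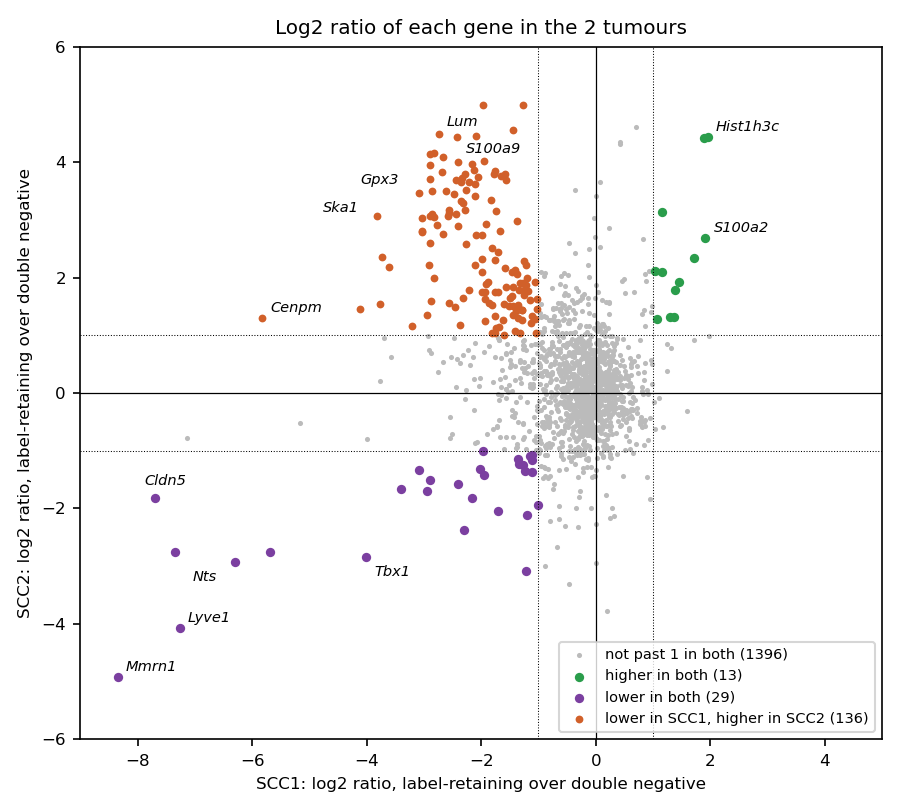
Log2 ratio of label-retaining over double negative cells in SCC1 (horizontal axis) and SCC2 (vertical axis) from the authors' deposited table, 1 point per gene and dotted lines at 1 in size. The 136 genes lower in SCC1 and higher in SCC2 fill the upper left, the 29 lower in both reach -8.35 and -4.93 for Mmrn1, and 2 genes beyond 11 in size are not drawn.

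The 136 genes of opposite direction were spread over cell cycle lists and lists of other cell types. Cell cycle lists (mitosis, replication, repair) held 41 of them (30.1%), where they held 199 of all 1574 genes (12.6%). Fibroblast, endothelial, immune or inflammation lists held 33 (24.3%), against 56 of all genes (3.56%). On neither kind of list were 62 (45.6%), against 83.8% of all genes. Per the authors' deposited table their median log2 ratio was -1.94 in SCC1 against 2.22 in SCC2. In the cell cycle set label-retaining cells stood at -5.36 and -1.61 against proliferative cells and double negative cells at -3.64 and -3.27 (medians, SCC1 and SCC2, the authors' deposited table). In the stromal and inflammatory set the medians per the authors' deposited table were -0.23 and 4.07 for label-retaining and 2.38 and 0.51 for double negative cells against proliferative cells. The order of the slow populations in these medians is fixed by how the 136 genes were chosen. Every median of the cell cycle set lay below proliferative cells. Whether the unstated rule by which genes entered the table fixed that as well was not tested. The H2BGFP label of the sorted populations was not checked, so the labels behind the direction in each tumour could not be checked from the table. The 4 endothelial and mural genes with a defined ratio, described below, had negative ratios in both tumours, 2 of them short of the call in SCC2.

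Genes of mitosis, the kinetochore and the spindle had lower ratios in SCC1 and higher ratios in SCC2. Of 110 listed genes 104 had a defined ratio. In label-retaining cells 46 were called lower in SCC1 and 64 higher in SCC2, against 0 higher in SCC1 and 2 lower in SCC2. The shares of all genes were 18.9% and 17.9%, against 1.52% and 6.54%. The sign was negative in SCC1 and positive in SCC2 for 95 of the 104, and 36 passed 1 in size in that manner in both. Of all genes 41.4% had these signs and 8.64% passed 1 in size. The list had a median log2 ratio of -0.96 in SCC1 against 1.14 in SCC2 per the authors' deposited table, beside -0.23 and 0.14 over all genes. Against proliferative cells all 104 were at or below -1 in double negative cells of both tumours, where 28.7% of all genes were so in SCC1 and 32.7% in SCC2. In label-retaining cells 104 were at or below -1 in SCC1 and 101 in SCC2, with shares of all genes of 34.8% and 33.3%. The median per the authors' deposited table ran from -4.15 in label-retaining cells of SCC1, through -3.25 and -3.01 in double negative cells of SCC1 and SCC2, to -1.68 in label-retaining cells of SCC2. Relative to the proliferative cells of each tumour, the double negative cells lay close together on this list and the label-retaining cells on either side of them.

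Ska1, a part of the complex that couples kinetochores to microtubule ends, had log2 ratios of -3.83 in SCC1 and 3.07 in SCC2 per the authors' deposited table, a 14.2-fold lower and an 8.40-fold higher level in label-retaining cells. Against proliferative cells Ska1 stood there at -8.08 and -0.73 in label-retaining and at -4.30 and -3.83 in double negative cells. Relative to the proliferative cells of each tumour, the double negative values of Ska1 were thus alike and the label-retaining ones far apart. Cenpm, a centromere protein, had the lowest SCC1 ratio of the list per the authors' deposited table, -5.83, with 1.30 in SCC2. The mitotic kinesin Kif14 was at -2.11 and 2.21 and Fam64a at -1.99 and 2.32 per the authors' deposited table. For cyclin B2 (Ccnb2), a partner of the mitotic kinase CDK1, the values per the authors' deposited table were -1.92 and 1.89. The exceptions called lower in both tumours were Kif20a, a kinesin of cytokinesis, at -1.26 and -1.24, and the kinetochore gene Cenpk, at -1.11 and -1.07, per the authors' deposited table.

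Many genes expressed late in the cell cycle carry a short promoter element called CHR near the start site, through which the DREAM and MuvB complexes are known to act. The element was searched as TTTGAA or TTCGAA on both strands in RefSeq promoters of assembly GRCm38.p6, 250 bases before to 50 after the start, 1 per gene, and matches may overlap those of other motifs. Of 82 promoters found for genes of the mitosis list 57 held it (69.5%), against 19.3% of 1132 promoters of genes with a defined ratio and 19.4% of 27025 RefSeq promoters. CCAAT, the box bound by NF-Y, was in 70.7% of the 82 and 45.9% of the 1132. A match is a description of letters and not a bound site. The RefSeq start lay at the outer end of the annotated gene for 38 of the 82 and 661 of the 1132 promoters, and elsewhere for the rest. The 150 bases before the start are shown for Kif15, Ube2c and Cdk1, 5′ to 3′ on the gene's strand with the CHR matches in capitals (the search letters or their reverse complement). They were picked by the largest smaller size from a part of the mitosis genes lower in SCC1 and higher in SCC2. A start at the gene's outer end and a match in this stretch were also required. The other genes of the list were left out before this choice, so these 3 need not lead the whole list.
Kif15: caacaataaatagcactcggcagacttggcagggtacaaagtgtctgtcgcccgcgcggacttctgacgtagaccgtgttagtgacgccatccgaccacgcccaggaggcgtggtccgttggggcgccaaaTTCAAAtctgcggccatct
Ube2c: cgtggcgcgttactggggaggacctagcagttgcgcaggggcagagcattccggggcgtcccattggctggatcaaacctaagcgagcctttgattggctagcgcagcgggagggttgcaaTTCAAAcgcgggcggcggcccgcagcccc
Cdk1: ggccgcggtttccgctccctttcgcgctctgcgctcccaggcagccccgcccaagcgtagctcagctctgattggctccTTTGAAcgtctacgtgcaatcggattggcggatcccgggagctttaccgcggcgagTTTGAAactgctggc
They lie at chr9:122950931-122951080 on the plus strand, chr2:164769779-164769928 on the plus strand and chr10:69352913-69353062 on the minus strand of GRCm38.p6. The match began 19 bases before the start in Kif15 and 29 in Ube2c, and Cdk1 had 2 matches, 71 and 15 bases before it. The spindle kinesin gene Kif15 had log2 ratios of -1.46 and 2.10 per the authors' deposited table. Ube2c, which works with the anaphase-promoting complex to mark mitotic proteins for breakdown, stood at -1.22 and 2.22 per the authors' deposited table. Cdk1, the kinase that drives entry into mitosis, was at -1.06 and 1.28 per the authors' deposited table.

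Genes of DNA replication and nucleotide synthesis were called about as often as all genes. Of 59 with a defined ratio among 67 listed, 11 were called lower in SCC1 and 11 higher in SCC2, beside 18.9% and 17.9% of all genes, and 2 in both, beside 8.64%. The sign was negative in SCC1 and positive in SCC2 for 46 of the 59, against 652 of all 1574 genes (41.4%). Its medians per the authors' deposited table were -0.37 and 0.50. Asf1b, a histone chaperone of the replication fork, was at -1.32 and 1.92 and the cell cycle repressor E2f8 at -1.05 and 1.05 per the authors' deposited table. Prim1, the primase subunit that starts new DNA strands, stood at -1.56 in SCC1 and at 0.69, short of the call, in SCC2 per the authors' deposited table. E2F letters (TTTCCCGC, TTTGGCGC or TTTCGCGC, both strands) were found in 27.7% of 47 promoters of the list and in 7.24% of the 1132.

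Among DNA repair and checkpoint genes 36 of 50 had a defined ratio, with 9 called lower in SCC1, 7 higher in SCC2 and 2 lower in SCC2, beside shares of all genes of 18.9%, 17.9% and 6.54%. These counts are near the shares of all genes. Medians per the authors' deposited table were -0.38 and 0.44. Fancd2, the protein that Fanconi anaemia cells fail to modify at crosslinks, had ratios of -3.60 and 2.18 per the authors' deposited table. The DNA glycosylase Neil3 was at -2.94 and 1.35 and the exonuclease Exo1 at -1.45 and 1.35 per the authors' deposited table. These 3 of 36 genes made up the repair genes of opposite direction, a share near the 8.64% of all genes.

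Histone genes with a defined ratio differed from the other cell cycle lists in that SCC1 had no gene called lower. Left out as undefined was Hist1h3g, listed at -12 in SCC1 and at 0 in SCC2 per the authors' deposited table. Of 14 with a defined ratio among 53 listed, 1 was called higher in SCC1 and 7 in SCC2, beside 1.52% and 17.9% of all genes. The list's medians per the authors' deposited table were 0.25 and 1.19. Hist1h3c, a gene of histone H3, was called in both tumours, at 1.95 and 4.43 per the authors' deposited table. A pair of linker histone genes had the widest gap between tumours, Hist1h1b at 0.23 and 2.86 and Hist1h1e at -0.47 and 2.61 per the authors' deposited table. The histone H4 genes Hist1h4h (0.87, 2.06) and Hist1h4i (0.88, 1.94) leaned the same way per the authors' deposited table. Replication histone genes are near-identical copies whose reads can be split between them, and their RNAs mostly lack a poly(A) tail, so single histone values are uncertain.

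**Figure D2:**
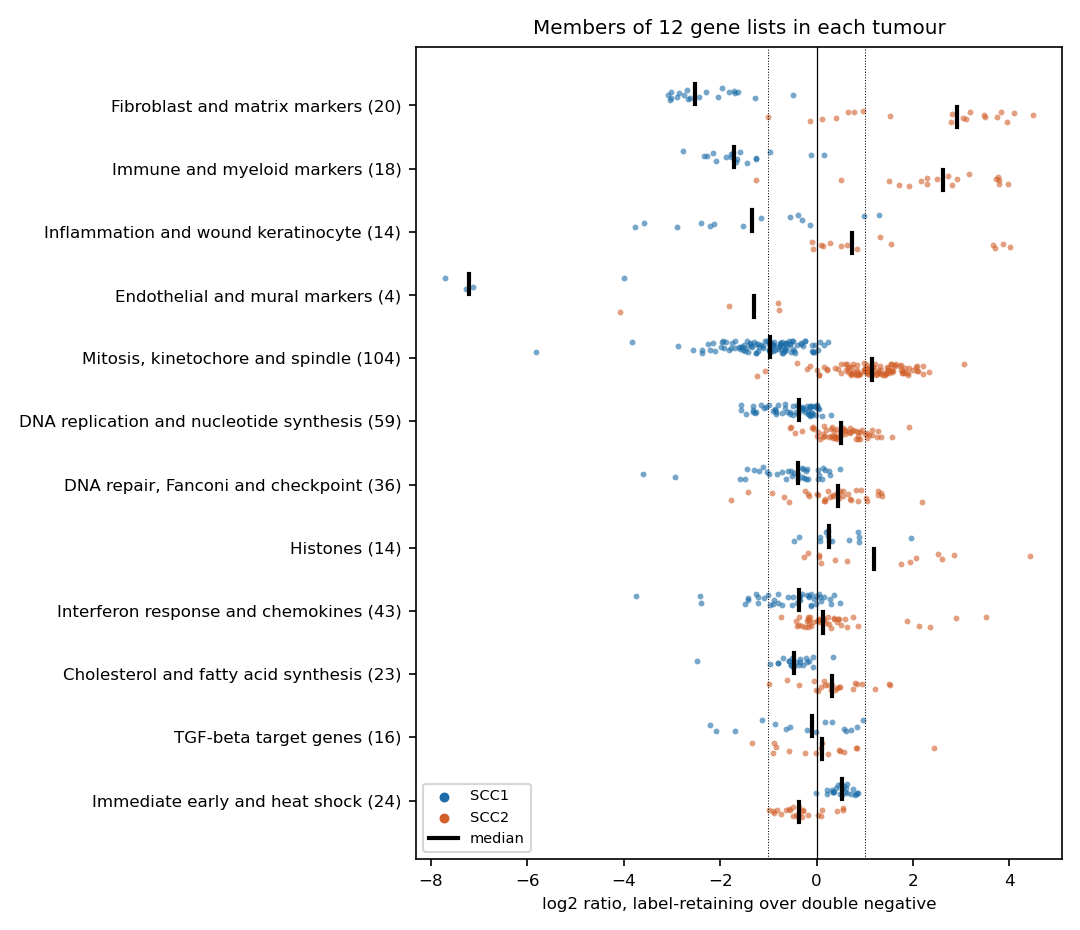
Log2 ratios of label-retaining over double negative cells for the members of 12 gene lists, SCC1 in blue and SCC2 in orange, 1 point per gene with a black bar at the median and the number of genes in brackets. Fibroblast, immune and mitosis genes lie to the left in SCC1 and to the right in SCC2, with medians of -2.53 and 2.92 for fibroblast genes, and endothelial genes lie to the left in both.

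Fibroblast and matrix genes gave one of the widest gaps between the tumours. Of 43 listed genes 20 had a defined ratio, and 19 of these were called lower in SCC1 and 13 higher in SCC2 in label-retaining cells. The 13 were all lower in SCC1, and 1 gene, Ogn, was lower in both. Over all genes 18.9% were called lower in SCC1, 17.9% higher in SCC2 and 8.64% in this opposite direction, with 1.84% lower in both. Their medians per the authors' deposited table were -2.53 and 2.92, beside -0.23 and 0.14 over all genes. Against proliferative cells in SCC1, 18 of the 20 were at or above 1 in double negative cells and 4 in label-retaining cells, where 23.7% and 19.0% of all genes were so. In SCC2 it was 13 in double negative and 19 in label-retaining cells, with shares of all genes of 25.4% and 29.6%. The medians against proliferative cells per the authors' deposited table were 2.69 for double negative and 0.18 for label-retaining cells in SCC1, and 1.38 and 4.11 in SCC2.

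Thy1, a surface protein of fibroblasts, had log2 ratios of -3.03 in SCC1 and 3.04 in SCC2 per the authors' deposited table, 8.15-fold lower and 8.21-fold higher. Against proliferative cells Thy1 was at 3.61 and 2.31 in double negative and at 0.62 and 5.38 in label-retaining cells there. Collagen VI, of the matrix around cells, was represented by Col6a2 at -2.89 and 3.95, and collagen III by Col3a1 at -2.85 and 3.11, per the authors' deposited table. The small proteoglycan lumican (Lum) had the widest gap of the list, -2.75 against 4.48 per the authors' deposited table. Gpx3, a secreted glutathione peroxidase, stood at -3.09 and 3.47 per the authors' deposited table. Not every matrix gene was higher in SCC2, as Ogn, which encodes the proteoglycan osteoglycin, had -1.97 and -1.01 per the authors' deposited table.

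Immune and myeloid genes showed the same split. Of 51 listed genes 18 had a defined ratio, 15 were called lower in SCC1 and 16 higher in SCC2, and all 15 belonged to the 16. Against this split, 1 gene was called lower in SCC2, at -1.26. The shares of all genes were 18.9% lower in SCC1, 17.9% higher in SCC2, 8.64% with both and 6.54% lower in SCC2. List medians per the authors' deposited table were -1.70 and 2.62. Lyz2, the lysozyme of macrophages and neutrophils, was at -2.77 and 2.91 per the authors' deposited table. The chemokine genes Ccl3 (-2.28, 3.80) and Ccl4 (-2.16, 3.98) and the platelet and leukocyte signalling protein gene Plek (-2.34, 3.73) had like values per the authors' deposited table. Against proliferative cells the list's medians in that table were 1.27 in double negative and -0.39 in label-retaining cells of SCC1, and 0.41 and 2.94 in SCC2. The part of RNA from other cell types in these and the other results was not tested.

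Of 14 inflammation and wound genes with a defined ratio (41 listed), 8 were called lower in SCC1 and 6 higher in SCC2, and 5 were in both of these sets. The exception was 1 gene, Defb3, called higher in both tumours at 1.30 and 1.31. Among all genes these shares were 18.9%, 17.9% and 8.64%, with 0.826% higher in both. The list's medians per the authors' deposited table were -1.33 and 0.73. S100a8 and S100a9, the subunits of calprotectin made by neutrophils and inflamed keratinocytes, stood at -2.89 and -2.41 in SCC1, against 3.71 and 4.01 in SCC2, per the authors' deposited table. The cytokine gene Il1b was at -2.12 and 3.87 per the authors' deposited table. Krt6b, a keratin of wounded and thickened epidermis, had -2.21 and 3.66 between the slow populations per the authors' deposited table. It differed from the myeloid genes against proliferative cells, with -3.71 and 3.22 in label-retaining and -1.54 and -0.47 in double negative cells in that table. Among all genes of opposite direction, the largest smaller size also picked Trem1 (-2.89, 4.15), a myeloid receptor, Hdc (-2.89, 3.07), which makes histamine, Cpxm2 (-2.85, 3.51) and the collagen gene Col5a3 (-2.82, 3.05) per the authors' deposited table.

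**Figure D3:**
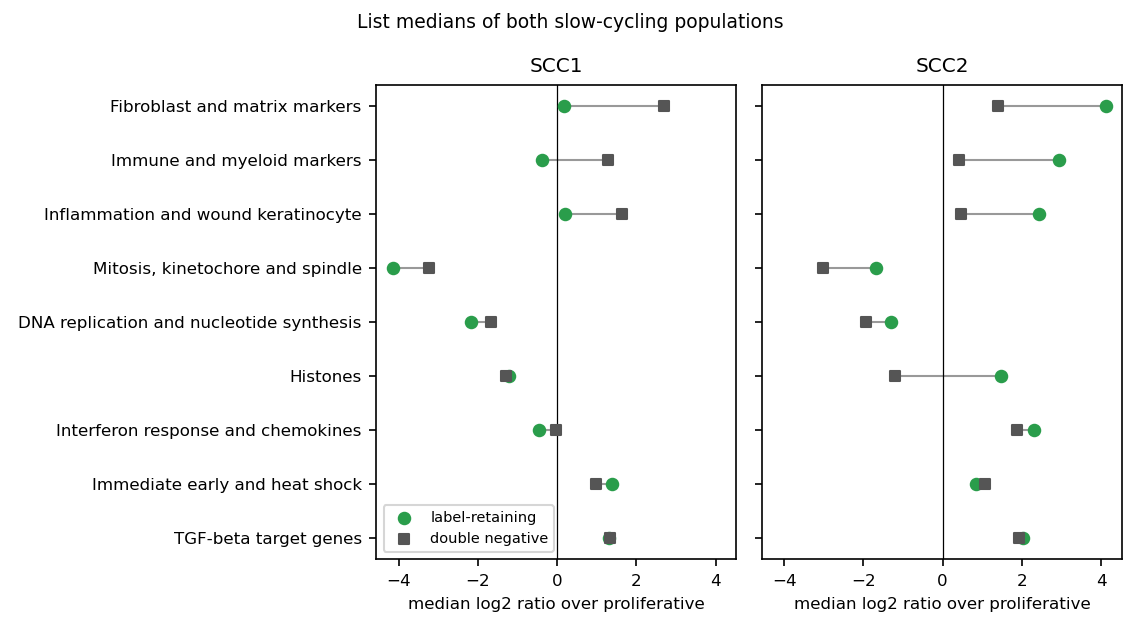
Median log2 ratio over proliferative cells of 9 gene lists in label-retaining (green circles) and double negative cells (grey squares) of SCC1 (left) and SCC2 (right), from the authors' deposited table. Fibroblast genes stand at 2.69 in double negative cells of SCC1 and at 4.11 in label-retaining cells of SCC2, while TGF-β target genes stand at nearly the same level in both populations of a tumour.

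The genes lower in label-retaining cells of both tumours were led by genes of vessels. Mmrn1, a secreted protein of endothelial cells and platelets, had log2 ratios of -8.35 and -4.93 per the authors' deposited table, 327-fold and 30.4-fold lower. Lyve1, a hyaluronan receptor of lymphatic endothelium, was at -7.27 and -4.07 there, 154-fold and 16.8-fold lower. With no levels given, it is unknown how few reads lay behind these values, so the sizes of the folds are uncertain. Both genes were near proliferative cells in the label-retaining cells, Mmrn1 at 0.57 and 0.84 and Lyve1 at -0.08 and 0.19 per the authors' deposited table. In double negative cells they were far above, Mmrn1 at 8.89 and 5.75 and Lyve1 at 7.15 and 4.24 per the authors' deposited table. Nts, the precursor of neurotensin, had -6.31 and -2.93 between the slow populations per the authors' deposited table and an undefined ratio against proliferative cells. A lymphatic chemokine locus read as Ccl21a,Gm1987 stood at -7.34 and -2.75 and Gm1987 at -5.69 and -2.75 per the authors' deposited table, near-identical copies whose reads can be split. That these genes are known from lymphatic endothelium was noticed after their values were seen.

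The endothelial and mural list had 4 genes with a defined ratio of 27 listed. All were called lower in SCC1 and 2 lower in SCC2, beside 18.9% and 6.54% of all genes. The list's medians were -7.20 and -1.30 per the authors' deposited table. Cldn5, a tight junction protein of endothelium, was at -7.70 and -1.81 per the authors' deposited table. Ramp2, a co-receptor for adrenomedullin in vessels, was at -7.14 and -0.77 and Egfl7, a secreted vessel protein, at -4.00 and -0.79 per the authors' deposited table. The smaller SCC2 ratios of Ramp2 and Cldn5 came with label-retaining cells that stood above proliferative cells, at 5.11 and 2.75 in SCC2 against -0.53 and -0.83 in SCC1 per the authors' deposited table. The list's medians against proliferative cells in that table were 6.70 and 4.38 in double negative and -0.57 and 1.82 in label-retaining cells.

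Tbx1, a T-box transcription factor placed here on the hair follicle stem cell and Wnt list, was at -4.02 and -2.84 per the authors' deposited table, 16.2-fold and 7.17-fold lower. The mitochondrial glutaminase Gls2 had -2.16 and -1.83, the retinol dehydrogenase Rdh12 -1.71 and -2.05 and AA465934 -2.30 and -2.37 per the authors' deposited table. Grem1, which encodes the secreted BMP antagonist gremlin, was lower in label-retaining cells, with ratios of -1.23 and -3.09, per the authors' deposited table. It stood above proliferative cells in both populations there, at 0.77 and 2.38 in label-retaining and 1.95 and 5.43 in double negative cells. Of the 29 genes, 2 were on cell cycle lists, 3 on the stromal, immune or inflammation lists and 22 on no list. Against proliferative cells the 29 had medians of 1.99 and 1.10 in double negative and -0.18 and -0.36 in label-retaining cells per the authors' deposited table.

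**Figure D4:**
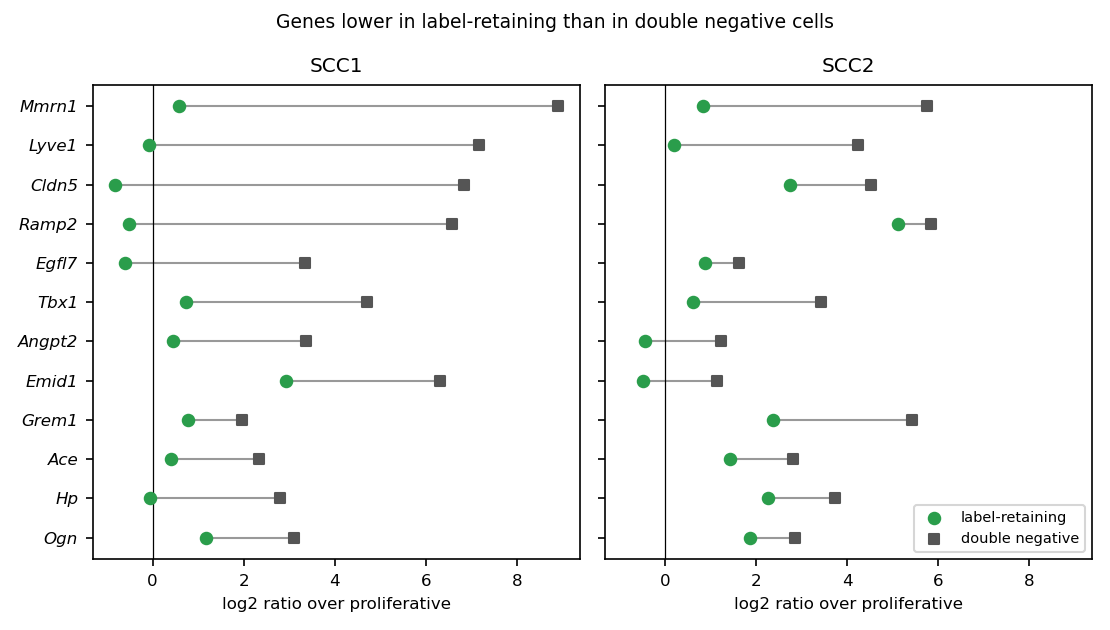
Log2 ratio over proliferative cells of 12 genes lower in label-retaining than in double negative cells, label-retaining as green circles and double negative as grey squares, SCC1 on the left and SCC2 on the right, from the authors' deposited table. The 12 genes were picked by hand and do not stand for the 29 called lower in both tumours. Ramp2 and Egfl7 were short of the call in SCC2, and Gls2, Rdh12 and AA465934 are not shown. Mmrn1 in double negative cells lies at 8.89 and 5.75, and for Ramp2 the label-retaining cells of SCC2, at 5.11, lie near the double negative ones.

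The genes higher in label-retaining cells of both tumours were 13, and 10 of them were on no list. S100a2, a calcium-binding protein of basal keratinocytes, had log2 ratios of 1.92 in SCC1 and 2.68 in SCC2 per the authors' deposited table, 3.77-fold and 6.43-fold higher. Against proliferative cells S100a2 was at -0.01 and 3.57 in label-retaining and at -1.96 and 0.87 in double negative cells in that table. Tmprss11g, an epithelial serine protease on the differentiation list, was at 1.46 and 1.93 and above proliferative cells in each population per the authors' deposited table, at 2.73 and 4.86 in label-retaining and 1.23 and 2.92 in double negative cells. Defb3, an antimicrobial defensin of epithelia, had nearly equal ratios of 1.30 and 1.31 per the authors' deposited table. Cox7a1, a subunit of mitochondrial cytochrome oxidase, was at 1.88 and 4.43 and Tnfaip8l3, a lipid transfer protein, at 1.38 and 1.79 per the authors' deposited table. The remaining named members were 2610528A11Rik (1.71, 2.35), 1700065J18Rik (1.37, 1.31) and Gm4013 (1.16, 3.14) per the authors' deposited table. The joined locus Dynlt1c,Dynlt1f, at 11.91 and 7.68 per the authors' deposited table, is a pair of near-identical copies of a dynein light chain with a double negative ratio of -12.51 over proliferative cells in SCC1, so its value is uncertain. A similar value of 13.01 for Ndufs5, a subunit of respiratory complex I, in SCC1 stood beside 0.32 in SCC2 per the authors' deposited table.

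No gene passed 1 in size as higher in SCC1 and lower in SCC2, and the nearest were of small size. Spink2, a protease inhibitor, was at 0.95 and -1.83 and Fam83b at 0.90 and -1.45 per the authors' deposited table. Lgr6, a receptor of epidermal stem cells, stood at 0.59 and -0.97 and Fosl1, an AP-1 subunit, at 0.85 and -0.90 per the authors' deposited table. The others were Zfp651 (0.91, -0.82), Cyr61 (0.71, -0.88), Gm5860 (0.65, -1.04), Cadm2 (1.03, -0.63), Vps37d (1.18, -0.59) and Ier2 (0.59, -0.63) per the authors' deposited table.

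Fosl1, Cyr61 and Ier2 are also on the list of immediate early and heat shock genes, which are transcribed within minutes of a stimulus. None of its 24 members with a defined ratio (45 listed) was called in either tumour, yet 23 were positive in SCC1 and 18 negative in SCC2, and 17 had both of these signs. Of all 1574 genes 456 were positive in SCC1 and 668 negative in SCC2, and 202 had both signs. The medians per the authors' deposited table were 0.53 and -0.37. Egr1, an early zinc finger factor, was at 0.57 and -0.83 per the authors' deposited table. Against proliferative cells the list's medians in that table were 1.39 and 0.85 in label-retaining and 0.98 and 1.07 in double negative cells. Thus this list stood above proliferative cells in both slow populations, and the slow populations differed by under the call. As background, dissociating a tissue is known to induce such genes, and the part of handling was not tested.

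TGF-β target genes, as a list, stood at a like level in the 2 slow populations. Of 45 listed 16 had a defined ratio, 4 were called lower in SCC1, and 1 was higher and 1 lower in SCC2, beside 18.9%, 17.9% and 6.54% of all genes. Its medians per the authors' deposited table were -0.10 and 0.11, and with centred columns they changed sign to 0.13 and -0.03. Against proliferative cells 11 of the 16 were at or above 1 in each population in SCC1, and 14 in label-retaining and 13 in double negative cells in SCC2. Of all genes 19.0% and 23.7% were so in SCC1 and 29.6% and 25.4% in SCC2, label-retaining cells first. The list's medians per the authors' deposited table were 1.32 and 2.02 in label-retaining and 1.33 and 1.92 in double negative cells. Single members differed. Mmp2, a matrix protease also made by fibroblasts, was at -1.70 and 2.44 and Snai1, a factor of epithelial to mesenchymal change, at -2.20 and 0.49 per the authors' deposited table. Timp3, an inhibitor of matrix proteases, was at -2.08 and -0.85 and Ctgf, a matricellular protein, at -1.12 and 0.82 per the authors' deposited table. Cyr61, a relative of Ctgf, leaned the opposite way with 0.71 and -0.88 per the authors' deposited table.

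Of the ligands, receptors and modulators of TGF-β and BMP signalling 7 of 43 had a defined ratio. Of these 3 were called lower in SCC1, and 1 was higher and 2 lower in SCC2, beside 18.9%, 17.9% and 6.54% of all genes. Medians per the authors' deposited table were -0.63 and -0.45. The ligand Tgfb2 was at -0.63 and -0.95 per the authors' deposited table, short of the call in both tumours. Eng, the co-receptor endoglin that is abundant on endothelium, was at -1.32 and 0.58, and Fstl1, a secreted follistatin-like protein, at -2.56 and 3.11 per the authors' deposited table.

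Of 75 listed interferon response genes and chemokines 43 had a defined ratio, 11 were called lower in SCC1 and 5 higher in SCC2, and 4 were in both sets. Shares of all genes were 18.9%, 17.9% and 8.64%, so calls in SCC2 were fewer and those in both sets about as many as over all genes. List medians per the authors' deposited table were -0.37 and 0.13, the second becoming -0.01 with centred columns. The chemokine genes Ccl5 (-3.74, 2.36), Ccl2 (-1.41, 2.14) and Cxcl2 (-1.21, 1.87) and the antiviral membrane protein gene Ifitm1 (-2.41, 2.90) were the 4 genes of opposite direction per the authors' deposited table. Against proliferative cells in SCC2, 43 of the 43 were at or above 1 in label-retaining cells and 39 in double negative cells. Of all genes 29.6% and 25.4% were so, and the list's medians per the authors' deposited table were 2.30 and 1.87. In SCC1 the counts were 1 in label-retaining and 3 in double negative cells, beside 19.0% and 23.7% of all genes. The medians there were -0.45 and -0.03 per the authors' deposited table. These medians lay further apart between the tumours than between the slow populations. They are taken over a different proliferative library in each tumour, and the part of that reference in the gap was not tested. Whether the unstated rule by which genes entered the table fixed this split was not tested. Interferon genes are bound by ISGF3 and IRF factors at the element ISRE, searched on both strands as 2 GAAA words with any 2 bases between them. It was in 13 of 33 promoters of the list (39.4%), 4.68% of the 1132 and 3.49% of all RefSeq promoters. Isg15, a ubiquitin-like protein induced by interferon, had 3 overlapping matches in the 150 bases before its start at chr4:156200819-156200968 on the minus strand of GRCm38.p6, with the matches in capitals.
Isg15: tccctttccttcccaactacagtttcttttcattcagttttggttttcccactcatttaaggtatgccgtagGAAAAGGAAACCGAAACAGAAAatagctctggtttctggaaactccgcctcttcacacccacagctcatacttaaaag
Between the slow populations Isg15 had log2 ratios of -1.21 and 0.75 per the authors' deposited table.

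Cholesterol and fatty acid genes had a small split in the direction of the cell cycle genes. Of 23 with a defined ratio among 40 listed, 18 were negative in SCC1 and positive in SCC2, beside 41.4% of all genes. But 1 was called lower in SCC1 and 3 higher in SCC2, beside 18.9% and 17.9% of all genes. The list's medians were -0.47 and 0.33 per the authors' deposited table. Insig1, the sterol-sensing retention protein of the pathway, was at -2.48 and 0.95 per the authors' deposited table. Fdps, which makes farnesyl diphosphate, was at -0.56 and 1.53 per the authors' deposited table. The fatty acid elongase Elovl5 was lower by like sizes, -0.97 and -0.99, per the authors' deposited table. Among 12 NRF2 and antioxidant genes 2 were called lower in SCC1 and 3 higher in SCC2, near the 18.9% and 17.9% of all genes, among them the epithelial glutathione peroxidase Gpx2 at -1.46 and 1.68 per the authors' deposited table.

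The lists of genes that restrain the cycle and of stem cell, basal and differentiation genes held few members with a defined ratio. CDK inhibitors and antiproliferative genes had 0 calls among 12 in either tumour. Of all genes 18.9% were called lower and 1.52% higher in SCC1, and 6.54% and 17.9% in SCC2. Their list had medians of -0.01 and -0.11 per the authors' deposited table, and the first became 0.22 with centred columns. Of 9 hair follicle stem cell and Wnt genes 3 were called lower in SCC1, and 2 were higher and 2 lower in SCC2, beside 18.9%, 17.9% and 6.54% of all genes. The ligands Wnt11 (-1.29, 1.45) and Wnt7a (-1.03, 1.45) had opposite directions per the authors' deposited table. Epcam, an epithelial adhesion protein, was at -1.32 and 0.26 per the authors' deposited table. The other basal genes, Itga2 (-0.66, -0.71), an integrin subunit, and Col7a1 (-0.57, -0.70), the collagen of anchoring fibrils, had like values in both tumours per the authors' deposited table. The differentiation list had 1 call per tumour among 6 genes, both Tmprss11g on the higher side, beside 1.52% and 17.9% of all genes. Its medians of -0.14 and 0.02 per the authors' deposited table changed sign to 0.09 and -0.12 with centred columns. Among ligands and receptors, Kitl, the ligand of KIT, was at -0.99 and -0.98 and the growth factor binding protein Igfbp2 at 0.82 and 1.37 per the authors' deposited table.

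Genes with an undefined ratio were few, and 14 of the 35 are small RNA genes by their symbols. In SCC1 4 were listed at 12 and 8 at -12, and in SCC2 11 and 19. Both tumours listed the same 5 genes at -12 and the same 2 at 12. Those with a defined ratio of at least 1 in size in the other tumour included the keratin gene Krt23, at -2.99 in SCC1 and listed at -12 in SCC2, and the histone H4 gene Hist1h4f, at 2.66 and listed at 12, per the authors' deposited table. Vmn1r54, a vomeronasal receptor gene, had opposite signs, at -1.27 and listed at 12 per the authors' deposited table.

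Readouts that the ratios did not use were set beside the called genes. Of the 1574 genes 1567 were matched to RefSeq coordinates of GRCm38.p6, and regions were gene bodies with 10 kb either side. A Smad2/3 site, mapped by the authors in cultured tumour cells treated with TGF-β1, lay within 336 of the 1567 (21.4%). It was so for 17 of the 136 genes of opposite direction (12.5%), 2 of 28 lower in both (7.14%) and 3 of 12 higher in both (25.0%). The matched genes differed in length, with medians of 19.4 kb over all, 13.5 kb for the opposite, 16.6 kb for the lower and 3.17 kb for the higher genes. A peak of the authors' merged ATAC list, which marks open chromatin, was within reach of 94.5% of all genes, 83.1% of the opposite, 82.1% of the lower and 91.7% of the higher ones. Among the opposite genes with a Smad2/3 site were Col1a1, Ccl5, the kinesin gene Kif2c and Wnt7a, named after their values were seen.

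Copy number calls of the authors moved little with the ratios. In SCC1 the median log2 ratio per the authors' deposited table was -0.19 for 704 genes in gained regions, -0.26 for 838 genes without a call and -0.51 for 24 in lost regions. In SCC2 the same medians were 0.22 for 690, 0.08 for 855 and -0.10 for 20 genes. In both tumours these medians followed the order gain, no call, loss, with few genes in lost regions. The submitters' processing notes name mm9 beside mm10 for the double negative libraries and mm10 alone for the label-retaining ones, and the part of this in the ratios was not tested.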

How the data were processed

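RNA was sequenced from sorted populations of the tumours SCC1 and SCC2, 1 library per population and tumour. TopHat2 2.0.9, Cufflinks 2.2.0 and Cuffdiff 2.2.0 are named with mm10 in the submitters' processing notes, which add mm9 for the double negative libraries. The deposited values are log2 ratios that the authors formed between populations within a tumour. Their scaling, the rule by which genes entered the table, and levels, q-values and depth are not in the sources used here, so the precision of a ratio is unknown and calls rest on size. A test of the 2 within-tumour ratios over the 1574 genes (limma 3.58.1 in R 4.3.3, Benjamini-Hochberg) was added after the data were seen and tested on simulated data. The test's spread between genes comes from a table of genes chosen by an unstated rule. Copy number calls, Smad2/3 sites and merged ATAC peaks are positions deposited by the authors without a score used here, and the mutation table was not used.

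Ratios at exactly 12 in size or at 0 were left out. A call is a log2 ratio of at least 1 in size, and the call script found the genes placed in simulated tables. Python 3.11.15, numpy 2.4.6, pandas 2.3.3 and matplotlib 3.10.9 were used. The named genes are, per list with at least 3 members, up to 4 with the largest ratio in their less extreme tumour and 2 with the largest difference between tumours. Over all genes they are the 10 leading ones of each shared or opposite direction, plus Tfrc and up to 10 at the limit. The 23 lists and the members were chosen with earlier results of these data known. Exceptions named after their values were seen are called that, or complete a count of 5 or fewer. Alternatives were other sizes for a call, centred columns, differences of the ratios against proliferative cells, genes at the limit kept, each tumour alone and a window of 50 kb. Motif shares and printed promoters use RefSeq GRCm38.p6.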

Additional observations from a re-analysis of the deposited data

Results flagged for a closer look

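The result that stands out is the opposite direction of the tumours, which was not tested, since a difference between 2 tumours with 1 library per population each leaves no spread to test it against. There were 136 genes lower in label-retaining than in double negative cells of SCC1 and higher in SCC2, and 0 in the reverse direction. The H2BGFP label of the sorted populations was not checked, so the labels behind these directions could not be checked from the table. Fibroblast and matrix markers stood, per the authors' deposited table, at a median of -2.53 in SCC1 against 2.92 in SCC2. Immune and myeloid markers stood, per the authors' deposited table, at -1.70 in SCC1 against 2.62 in SCC2. The 4 endothelial and mural markers with a defined ratio were negative in both tumours, with medians of -7.20 and -1.30 per the authors' deposited table.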

How the results depend on the processing

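Each ratio pairs the populations of a tumour, and with the tumour as that block limma, added after seeing the data, passed 0 genes higher and 0 lower at an adjusted p under 0.05 in place of 13 and 29 called by size. With a call at 0.5 or 2 in place of 1, SCC1 had 108 or 2 genes higher and 539 or 108 lower, and SCC2 530 or 107 higher and 297 or 22 lower. At those sizes 39 or 1 genes were higher in both, 118 or 7 lower in both, and 273 or 49 lower in SCC1 and higher in SCC2. The reverse direction had 19 genes at 0.5. With centred columns 57 genes were higher in SCC1, 22 in both tumours and 3 in the reverse direction, and 42.8% of genes had the same sign. Of the 178 genes at least 1 in size in both tumours 23.6% had the same sign. With genes at the limit kept 21 were higher in both. Each tumour alone gave 24 to 281 genes higher and 103 to 297 lower.

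Centred columns moved medians per the authors' deposited table in SCC1 to 0.13 for TGF-β targets, -0.40 for the TGF-β and BMP pathway, 0.091 for differentiation, -0.43 for basal, -0.047 for hair follicle and Wnt, 0.22 for CDK inhibitor, 0.16 for MYC and ribosome biogenesis and 0.61 for hypoxia genes. In SCC2 they became -0.58 for the pathway, -0.12 for differentiation, -0.84 for basal, -0.25 for CDK inhibitor and -0.26 for MYC genes. By differences of the ratios against proliferative cells the basal medians were -0.62 and -0.66 and the SCC1 median of MYC genes was -0.034. Within 50 kb a Smad2/3 site was near 42.1% of all genes, 28.6% of those lower in both and 36.8% of the opposite ones. Of 44 list medians 10 had the other sign with centred columns, each under 0.2 in size as reported, and 1, of CDK inhibitor genes in SCC1, by differences of the ratios. The cause was not tested beyond the change of setting itself. Of 143 values recomputed 97 stayed within 1.5 times of a count or within a spread. For a median the spread was the standard deviation of its SCC1 and SCC2 values, so it was wide where the tumours differed. For a share it was a binomial interval that takes genes as independent, which they are not. Some medians of changed sign were thus counted as staying, so the 97 is no measure of stability. The depth behind each ratio is unknown.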

Other observations

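Gene groups of growth and supply held few genes with a defined ratio. Between the slow populations 18.9% of all genes were called lower in SCC1 and 6.54% in SCC2, and 1.52% and 17.9% higher. Of 62 listed genes of the MYC family and ribosome biogenesis 11 had a defined ratio, with 0 calls in SCC1 and 1 lower in SCC2, and list medians of -0.07 and -0.12 per the authors' deposited table. The SCC2 call was Rrp12, a factor of ribosome assembly, at 0.22 and -1.27 per the authors' deposited table, while Mycn, the MYC family factor, stood at -0.86 and -0.50. Among 11 solute carrier and amino acid supply genes 1 was called lower in each tumour, with medians of -0.18 and 0.29 per the authors' deposited table. They were the glutamate transporter gene Slc1a3, at -1.61 and -0.97, and Slc7a1, which carries cationic amino acids, at -0.17 and -1.14 per the authors' deposited table. Of 4 hypoxia and glycolysis genes 1 was called lower in SCC2, and the medians were 0.38 and 0.10 per the authors' deposited table. The glucose transporter gene Slc2a1 was at 0.81 and 0.11 per the authors' deposited table. Of 8 Notch, Hedgehog and EGFR ligands and receptors 1 was called lower in SCC1, and 1 was higher and 1 lower in SCC2. Their medians were 0.08 and -0.27 per the authors' deposited table. Among them were the Hedgehog inhibitor Hhip at -1.73 and -0.59 and the lymphatic growth factor Vegfc at 0.37 and -1.05. The NRF2 list had medians of -0.42 and 0.12, and of 26 erythroid, platelet and muscle markers 1 had a defined ratio, Tnnt3 at 0.17 and 1.00 per the authors' deposited table.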
